A study of Mus musculus with 9 samples.

Results

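Macrophages given medium from pulmonary hypertensive fibroblasts (PH-CM) were compared with macrophages given medium from control fibroblasts (CO-CM), to ask what the disease state of the fibroblasts changed. The members are the genes with a CPM (a gene's reads scaled to the counted reads of its library) above 1 in at least 3 of the 9 libraries, which were 11950 of the 53465 genes counted. The comparison used 6 of the 9 libraries, 3 per medium, and the 3 libraries of untreated macrophages (UNX) served to place each medium above or below the untreated level. Differences are PH-CM minus CO-CM unless another group is named, so that a positive log2 difference means a higher level under PH-CM.

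All libraries were made from bone marrow-derived macrophages (BMDMs), that is macrophages grown from the marrow of male wild-type C57BL/6 mice (C57bl6/J in the paper's methods). They were grown in medium with 50 ng/ml CSF1, the growth factor that drives marrow cells toward the macrophage fate. The labels also give 5 mM glutamine for all libraries, which is more than the paper's methods state. The UNX cells received no conditioned medium. The paper's methods add fetal bovine serum to the conditioned medium and name CSF1 for the growth medium only. Positions relative to UNX therefore cannot separate products of the fibroblasts from other differences between the media, such as serum or CSF1. The CO-CM cells received medium in which adventitial fibroblasts of the pulmonary artery from control neonatal calves had been grown, and the PH-CM cells received medium from fibroblasts of calves that had developed pulmonary hypertension in hypobaric hypoxia. Each medium was pooled from several calves' fibroblast populations, so the 3 replicates of a group are repeats of the macrophage culture on mouse cells and not separate calves, and p-values measure the spread between these cultures. The labels state 16 h of treatment under growth and 24 h under treatment, and the paper's methods give a time between these for RNA isolation. In bulk RNA of this kind, fewer cells of a type and less RNA per cell cannot be told apart.

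The adventitia is the outer coat of the pulmonary artery, where fibroblasts and macrophages lie side by side and exchange secreted signals. In pulmonary hypertension this layer thickens, and its fibroblasts are known to keep an activated, cytokine-secreting state in culture. Macrophages read such signals through pattern recognition, cytokine, chemokine and adhesion receptors, and they answer with secreted chemokines, matrix proteins and growth factors and with shifts in metabolism and proliferation.

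Libraries held between 62017933 and 84314201 counted reads, so that counting error was small for most genes and the spread between cultures set the precision. The median coefficient of variation between the 3 libraries of a group was 6.63% under CO-CM and 5.49% under PH-CM. Replicate 1 lay furthest from the others in each group, by a chi-square per gene that grows with the difference between a pair of libraries. Under CO-CM it was 44.95 and 48.05 for pairs with replicate 1 and 17.54 between replicates 2 and 3. The same values were 29.55, 21.6 and 10.62 under PH-CM and 57.19, 40.44 and 13.4 in UNX. The macrophage markers (Csf1r, Lyz2, Cd68, Adgre1 and others, 10 of 10 tested) summed to between 20202.2 and 21215.9 CPM under CO-CM and between 22626.7 and 24547.6 CPM under PH-CM. Markers of other cell types differed by list. Of the 12 lymphocyte markers 11 had a mean under 1 CPM in the CO-CM libraries and 10 in the PH-CM libraries, among them Cd3e and Ms4a1, while Cd2 (means of 0.233 and 2.62 CPM) and Cd4 (7.13 and 14.7 CPM) were tested and called higher under PH-CM. The lymphocyte markers summed to between 6.79 and 8.34 CPM under CO-CM and between 15.95 and 20.16 CPM under PH-CM. Of the 14 neutrophil markers 11 had a mean under 1 CPM under either medium. Of the 10 classical monocyte markers 5 did so under CO-CM and 4 under PH-CM, and of the 16 fibroblast markers 4 under CO-CM and 5 under PH-CM. Markers of the labelled cell type were therefore present in every library.

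PH-CM raised 1457 of the 11950 genes over CO-CM and lowered 1787, that is 12.2% and 15.0% of the genes tested, or 27.1% in either direction. A gene was called where edgeR's quasi-likelihood test gave a Benjamini-Hochberg adjusted p no larger than 0.05 and the media differed by 1.2-fold or more. Most of these differences were small, with a median of 0.56 on the log2 scale among the higher genes and of 0.52 in size among the lower ones. The balance turned with the size of the difference. At 2-fold or more, 336 genes were higher and 276 lower, at 4-fold or more 96 and 52, at 8-fold or more 36 and 12, and at 16-fold or more 18 were higher and 1, Mamdc2, was lower. Such counts include genes that passed the CPM filter through the PH-CM libraries alone. Examples are Ppbp, with means of 0.326 CPM in UNX, 0.0584 under CO-CM and 3.83 under PH-CM, and Ackr3, with 0.0336, 0.115 and 3.82. The counts therefore describe the called genes and do not test a balance. In 5999 genes the 3 libraries of one medium all lay above the 3 of the other, which is 50.2% of the genes tested. The smallest two-sided p that an exact permutation test of 3 libraries against 3 allows is 0.1, and the calls therefore rest on the edgeR fit, which shares information on spread across genes.

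**Figure D1:**
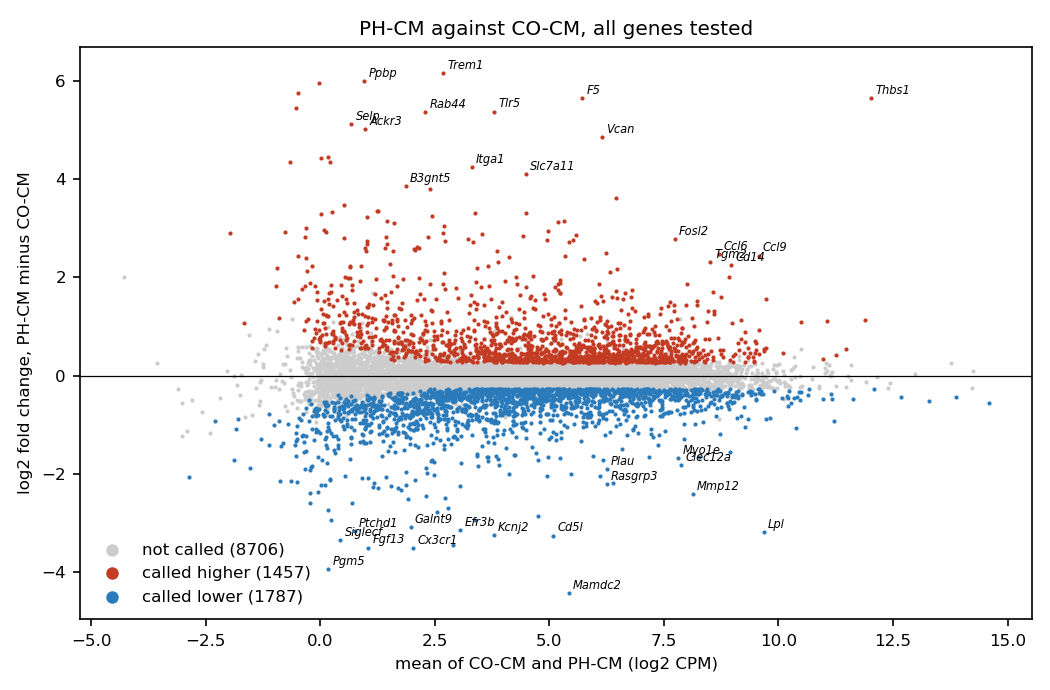
Log2 difference between PH-CM and CO-CM (vertical axis) against the mean level of each gene as log2 CPM (horizontal axis), 1 point per gene for 11950 genes, with called genes in colour. Increases extend further from 0 than decreases, and Thbs1 stands apart as both abundant and strongly raised.

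Placed against untreated cells, the called genes fell into several patterns. Among the 1457 raised genes, 470 (32.3%) were above UNX under both media, 463 (31.8%) were above UNX under PH-CM alone, 210 (14.4%) were below UNX under CO-CM alone and 136 (9.33%) were below UNX under both. Among the 1787 lowered genes, 717 (40.1%) were below UNX under both media, 443 (24.8%) were below UNX under PH-CM alone, 287 (16.1%) were above UNX under CO-CM alone and 170 (9.51%) were above UNX under both. The remaining called genes included those in which the media lay on opposite sides of UNX. The comparisons of the media with UNX share the UNX libraries, so these patterns describe positions and are not independent of each other.

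The gene with the largest change among abundant genes was Thbs1, which encodes thrombospondin-1, a secreted glycoprotein that binds matrix and cell surface receptors and can release active TGF-beta. Its CPM was 209, 139 and 138 in the CO-CM libraries, 7365, 8591 and 8509 in the PH-CM libraries and 80.9, 54.6 and 70.8 in the UNX libraries. The lowest PH-CM library lay far above the highest CO-CM library. The log2 difference was 5.66 ± 0.21 (SE, n = 3 per medium, edgeR adjusted p = 6.31e-08). By RPKM, which also divides by gene length, Thbs1 had a mean of 1326 under PH-CM, rank 19 among the genes tested, against 26.2 and rank 1821 under CO-CM. The gene lies at chr2:118111876-118127133 on GRCm38.

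Several other strongly raised genes encode proteins of the cell surface or of the matrix. Vcan encodes versican, a large matrix proteoglycan that classical monocytes also express, and stood at 5.26, 4.61 and 4.22 CPM under CO-CM and 114, 156 and 141 CPM under PH-CM (log2 difference 4.87). Itga1, the alpha-1 chain of a collagen-binding integrin, stood at 0.877, 1.05 and 1.04 CPM under CO-CM and 16.1, 20.9 and 19.5 CPM under PH-CM (log2 difference 4.25). Both had all 3 PH-CM libraries far above every CO-CM and UNX library. Ackr3, an atypical receptor that takes up the chemokine CXCL12, was close to 0 without PH-CM, with 0.0309, 0 and 0.0698 CPM in UNX, 0.0293, 0.0898 and 0.225 CPM under CO-CM and 1.87, 6.17 and 3.42 CPM under PH-CM. B3gnt5, a glycosyltransferase that starts lacto-series glycolipids, had 0.643, 0.269 and 0.478 CPM under CO-CM and 8.03, 6.08 and 6.27 CPM under PH-CM. Rab44, a large Rab GTPase of granules, had 0.161, 0.389 and 0.141 CPM under CO-CM and 7.63, 11.9 and 9.01 CPM under PH-CM. In each of these, low CO-CM levels make the exact fold uncertain, since the CO-CM libraries held only 24 reads of Ackr3 and 47 reads of Rab44 in all.

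**Figure D2:**
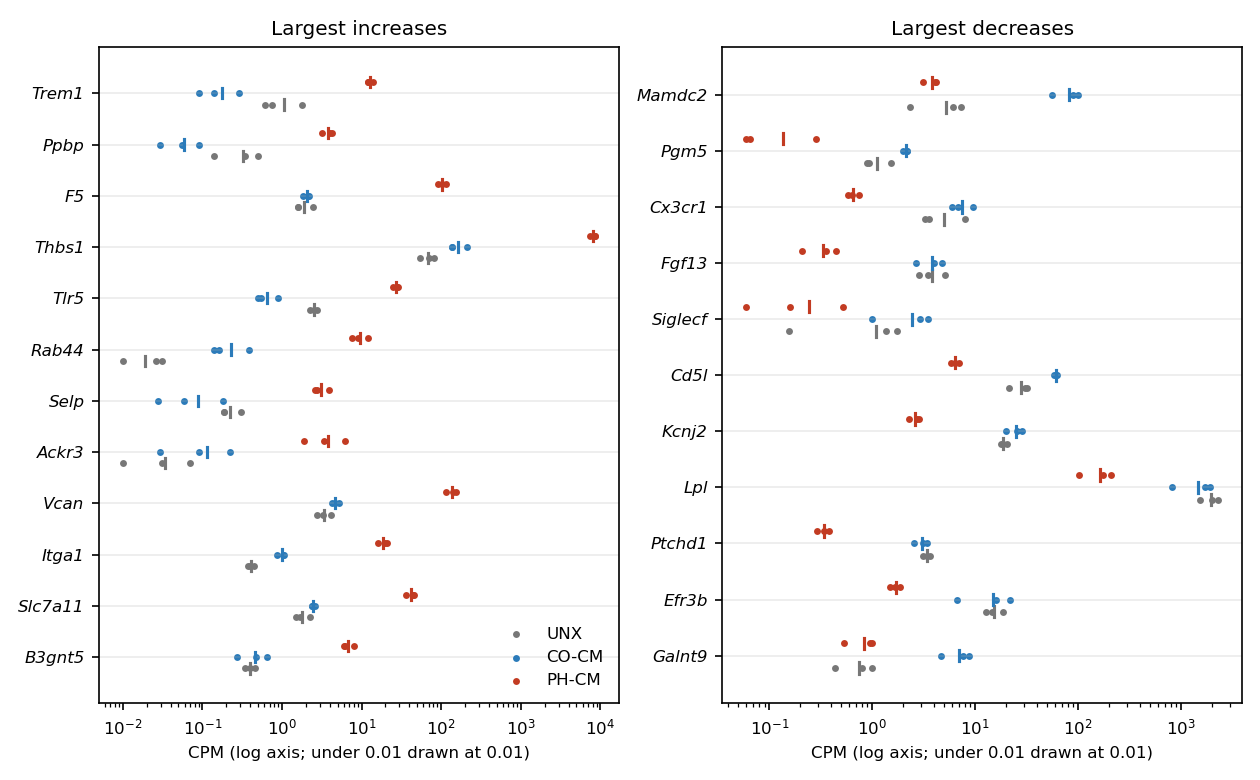
CPM of genes among the largest increases (left) and decreases (right) on a log axis, with 1 point per library and a short bar at the mean of each group, coloured by UNX, CO-CM and PH-CM. In every gene shown, the 3 PH-CM libraries lie wholly on one side of the 3 CO-CM libraries, which the selection of genes with separated libraries required.

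Among genes abundant in these cells (mean of at least 100 CPM), the next largest increases belonged to Fosl2, Ccl6, Ccl9, Tgm2 and Cd14. Fosl2, a subunit of the transcription factor AP-1, stood at 56.4, 60.7 and 45.9 CPM under CO-CM and 369, 389 and 359.9 CPM under PH-CM (log2 difference 2.78 ± 0.11). Ccl9, a chemokine of the CC class, stood at 162, 285 and 258 CPM under CO-CM and 1104, 1375 and 1358 CPM under PH-CM, with UNX in between at 516, 699.8 and 689 CPM. Tgm2, the crosslinking enzyme tissue transglutaminase, stood at 138, 114 and 116 CPM under CO-CM and 574, 626 and 623 CPM under PH-CM. Exons of Tgm2 overlap those of Rprd1b, and reads from the overlap cannot be assigned with certainty. In these 5 genes, picked for a large difference, every PH-CM library lay above every CO-CM library. By RPKM, Cd14 went from rank 372 under CO-CM to rank 54 under PH-CM, Ccl9 from 559 to 75 and Tgm2 from 1826 to 305.

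The largest decreases included a lipase, cell surface receptors and signaling genes. Lpl encodes lipoprotein lipase, which frees fatty acids from lipoproteins, and fell from the most abundant level of this group, with 1557, 2003 and 2324 CPM in UNX, 824, 1710 and 1909 CPM under CO-CM and 103, 175 and 209.8 CPM under PH-CM (log2 difference -3.19 ± 0.34, edgeR adjusted p = 5.43e-05). Its rank by RPKM went from 286 under CO-CM to 3064 under PH-CM. Cx3cr1, the fractalkine receptor, stood at 9.56, 6.88 and 5.99 CPM under CO-CM and 0.744, 0.58 and 0.633 CPM under PH-CM. Cd5l, a secreted protein of resident macrophages, stood at 59.2, 63.3 and 61.5 CPM under CO-CM and 6.41, 6.95 and 5.89 CPM under PH-CM. Siglecf, a sialic acid-binding receptor of eosinophils and alveolar macrophages, stood at 0.995, 2.9 and 3.49 CPM under CO-CM and 0.0595, 0.515 and 0.158 CPM under PH-CM. No PH-CM library reached the lowest CO-CM library in any of these 4 genes, as the selection of genes with separated libraries required.

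Kcnj2, an inwardly rectifying potassium channel, was at 20.1, 25.8 and 28.9 CPM under CO-CM and 2.86, 2.29 and 2.72 CPM under PH-CM. Fgf13, an intracellular member of the fibroblast growth factor family, was at 2.66, 3.95 and 4.76 CPM under CO-CM and 0.208, 0.354 and 0.443 CPM under PH-CM. Their log2 differences were -3.25 and -3.50. Pgm5 (-3.95), Ptchd1 (-3.16), whose exons overlap Gm15156, Efr3b (-3.14) and Galnt9 (-3.08) were also among the largest decreases. Among abundant genes, Mmp12, the macrophage elastase, followed Lpl with 179, 612 and 624 CPM under CO-CM, near its UNX level of 247, 622 and 559 CPM, and 50.7, 108 and 108 CPM under PH-CM. Rasgrp3 (-2.20), an activator of Ras, Plau (-1.90), the protease urokinase, Clec12a (-1.82), an inhibitory lectin receptor, and Myo1e (-1.68), a membrane-bound myosin, came next by log2 difference. Plau was already lower under CO-CM than in UNX, with means of 809 CPM in UNX, 120.5 CPM under CO-CM and 32.3 CPM under PH-CM.

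Gene lists of pathways and cell types put these changes in context. Each pathway list is given by how many of its tested members were called, beside the 12.2% higher and 15.0% lower among all genes tested. For most lists the median log2 difference follows, beside a median of -0.01 over all genes. An unadjusted p under 0.05 in edgeR, given for some lists, was reached by 5592 of all 11950 genes in either direction. The lists were chosen with earlier results of these data known, so the counts describe the lists and do not test them. Higher and lower refer to CO-CM and not to UNX: Dusp6, Nid2 and other genes higher than under CO-CM were called below UNX, and Csf3r, Ctsd, Fabp4, Gpnmb, Itgb3, Naip5, Slc7a2 and Tnip1 were lower than under CO-CM and called above UNX. Pathway lists with most members called lower were mitosis and spindle, ribosomal proteins and DNA replication, and lists with at least 50% of members called higher included the qPCR regulators, pattern recognition receptors, interferon-stimulated genes, chemokines, cholesterol and fatty acid synthesis, matrix genes and complement and Fc receptors. Where exons of a named gene overlap those of another gene, reads cannot be told apart, which applies to Ccna2, Ccnd1, Cebpd, Folr2, Irf7, Jun, Junb, Mdh1, Mmp19, mt-Nd5, Myd88, Nfkb2, Nid2, Pkm, Rpl12, Stab1 and Stat3 and to those where it stands beside the values.

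**Figure D3:**
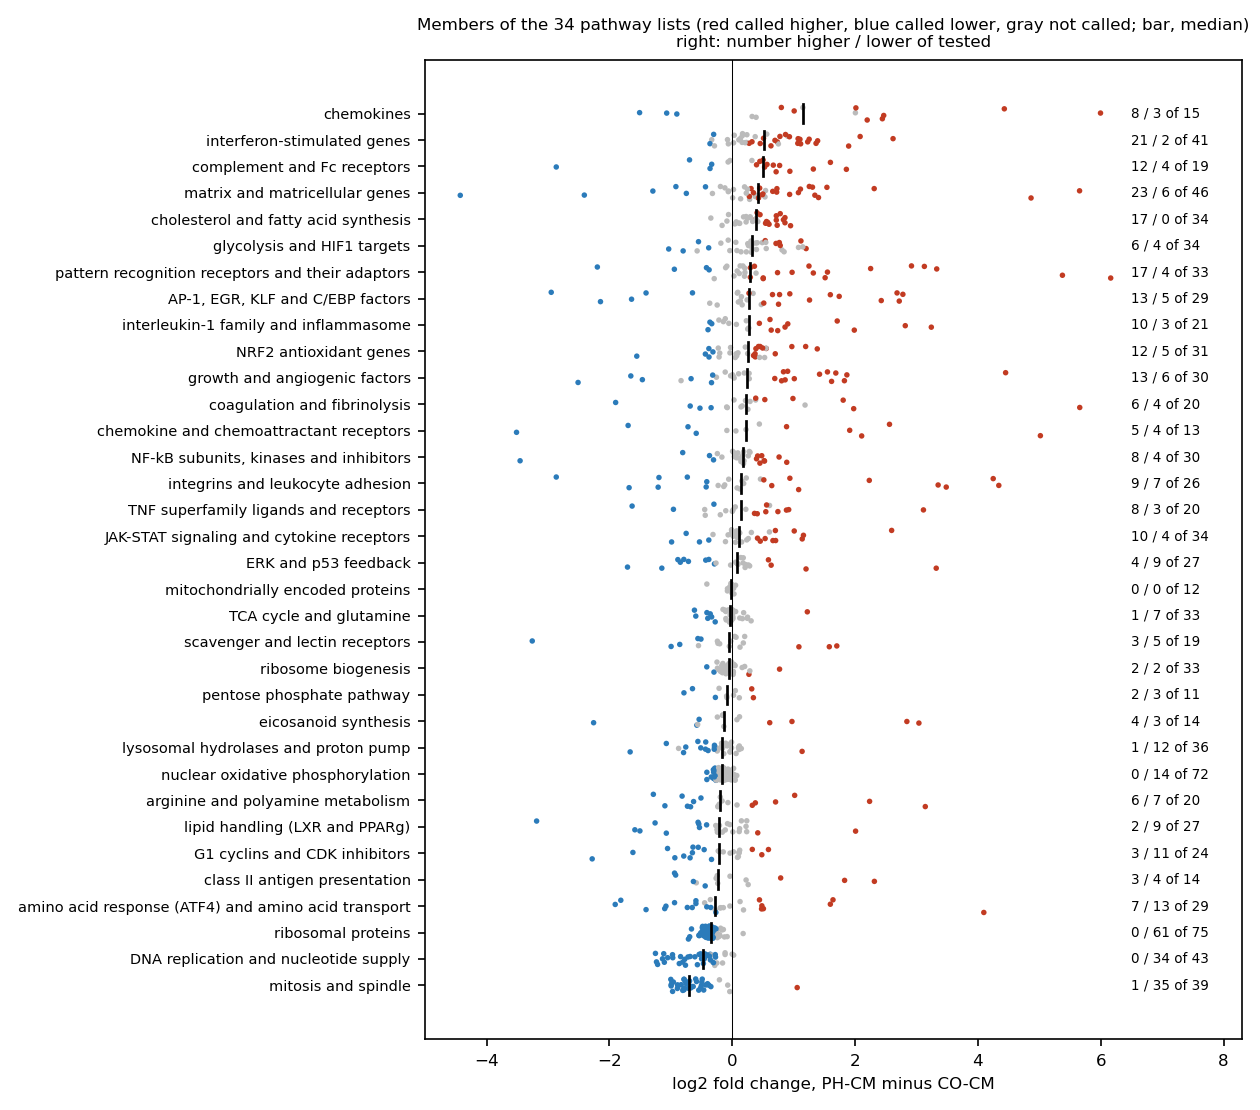
Log2 difference between PH-CM and CO-CM (horizontal axis) for the tested members of 34 pathway lists, 1 point per gene, red where called higher, blue where called lower and gray where not called, with a bar at each list's median and the counts at the right. Medians run from -0.70 for mitosis and spindle at the bottom to 1.15 for chemokines at the top.

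Pattern recognition receptors and their adaptors were among the raised groups, with 17 of 33 members higher and 4 lower and a median log2 difference of 0.29. Cd14, which presents lipopolysaccharide to TLR4, had 158, 189 and 176 CPM under CO-CM, 735, 889.6 and 870.1 CPM under PH-CM and 335, 287 and 305 CPM in UNX. Clec4n, the C-type lectin Dectin-2 that binds fungal mannans, had 8.53, 6.64 and 7.14 CPM under CO-CM and 63.4, 62.2 and 69.5 CPM under PH-CM, a log2 difference of 3.13 ± 0.13. The linked lectin receptors Clec4d and Clec4e rose with it, by 1.55 and 1.51. Fpr1 and Fpr2, receptors for formylated bacterial peptides, rose from means of 0.214 and 0.137 CPM to 2.16 and 1.04 CPM. The endosomal receptors Tlr3 (0.20), Tlr7 (0.12), Tlr8 (0.03) and Tlr9 (0.39) were not called, although Tlr9 was called higher with the replicate block (edgeR adjusted p = 0.00832), and Tlr13, the receptor for bacterial ribosomal RNA, was lower at -0.94. Clec7a, the beta-glucan receptor Dectin-1, went against its lectin relatives, with 17.5, 35 and 34.7 CPM in UNX, 72.5, 174 and 163 CPM under CO-CM and 21.9, 32.4 and 35.1 CPM under PH-CM. Its PH-CM level thus lay near the untreated level, while CO-CM had raised it.

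A list of regulators also measured by qPCR had 7 of 10 members higher and 0 lower, and no member was lower at an unadjusted p under 0.05, by the edgeR exact test or by DESeq2. Trem1, an amplifier of innate signals, Tlr4 and Hif1a lay on opposite sides of UNX. C5ar1, the receptor for complement C5a, was below UNX under both media, with 879, 742 and 775 CPM in UNX, 188, 207 and 212 CPM under CO-CM and 485, 517 and 514 CPM under PH-CM, so that its higher level under PH-CM (1.32) was a smaller distance from UNX. Tlr2 (1.25), Stat3 (0.54) and Myd88 (0.36) were also higher. Mtor (0.03) and Ccr2 (-0.09) were among those not called. The list was chosen in the study from RNA data of these cultures, so its count is not independent evidence of a direction.

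Of the interleukin-1 family and inflammasome genes 10 of 21 were higher and 3 lower, with a median of 0.27. Ligands and receptors led the increases. Il1b, the secreted cytokine, had 0.424, 1.89 and 0.801 CPM under CO-CM and 7.11, 12.4 and 9.85 CPM under PH-CM. Il1r1, its signaling receptor, had 0.468, 0.928 and 0.619 CPM under CO-CM and 3.39, 5.1 and 5.71 CPM under PH-CM. Il1rn, the receptor antagonist, rose by 0.86 but stayed below its UNX mean of 61.4 CPM, at 23.7 CPM under CO-CM and 43 CPM under PH-CM. Il1rl1, the receptor for IL-33, followed the same course with means of 5.89, 0.631 and 2.5 CPM in UNX, CO-CM and PH-CM. The inflammasome sensor Nlrp3 was higher by 0.90 but below its UNX mean of 83.1 CPM, at 23.9 CPM under CO-CM and 44.7 CPM under PH-CM, while the adaptor Pycard (-0.40) and the protease Casp1 (-0.33) were lower. The call of Pycard was lost without CO-CM replicate 2 (-0.36), CO-CM replicate 3 (-0.36) or PH-CM replicate 1 (-0.28). Naip5 (-0.36), a sensor of bacterial flagellin, was lower too, and reads of the near-identical Naip copies can be split between them.

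Chemokines were higher in 8 of 15 cases and lower in 3, with a median of 1.15. The neutrophil-attracting CXC ligands moved together: Cxcl1 rose from a mean of 0.574 to 2.32 CPM, Cxcl2 from 3.85 to 17.7 CPM and Cxcl3 from 0.0881 to 1.92 CPM. The last rests on 18 reads in the CO-CM libraries against 369 in the PH-CM libraries. Ccl6 had 97.9, 154 and 132 CPM under CO-CM, 571, 794 and 752 CPM under PH-CM and 148, 279 and 219.9 CPM in UNX, so that the media lay on opposite sides of UNX. In contrast, Ccl3 and Ccl4, which were reduced by both media, were lower still under PH-CM, with means of 35.5, 5.21 and 1.84 CPM for Ccl4 in UNX, CO-CM and PH-CM. Ccl2 (0.32) and Ccl7 (0.39) were not called, but without CO-CM replicate 3 both were called higher, at 0.75 and 0.78, and Ccl7 was called higher with the replicate block (0.40, edgeR adjusted p = 0.0435). Among receptors, 5 of 13 were higher and 4 lower. Ccr1, which binds several CC chemokines, had 18.9, 37.8 and 33.3 CPM under CO-CM and 112, 137 and 139 CPM under PH-CM. Gpr35 (2.56) and the chemerin receptor Cmklr1 (1.91) rose as well, whereas Ptger4 (-1.70), a prostaglandin E2 receptor whose exons overlap Ttc33, was lower.

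Promoter sequences are given for genes of 4 groups that carry a short motif, to show the letters in the windows of raised and lowered genes. Windows run from 250 bases before to 50 bases after the start of the gene, read 5′ to 3′ on the strand of the gene, from RefSeq on GRCm38.p6. Capitals mark matches on either strand. A window was found for 9142 of the 11950 genes tested, the first listed per gene, and for 27025 genes in all. The AP-1 motif TGANTCA was present in 7.93% of all 27025 windows, in 4.92% of the windows of genes tested, in 12.1% (31 of 257) of those of genes at least 2-fold higher under PH-CM and in 6.38% of those of genes at least 2-fold lower. Ppbp at chr5:90768268-90768567 and Selp at chr1:164115014-164115313, both on the plus strand and raised under PH-CM, hold 1 match each.
Ppbp: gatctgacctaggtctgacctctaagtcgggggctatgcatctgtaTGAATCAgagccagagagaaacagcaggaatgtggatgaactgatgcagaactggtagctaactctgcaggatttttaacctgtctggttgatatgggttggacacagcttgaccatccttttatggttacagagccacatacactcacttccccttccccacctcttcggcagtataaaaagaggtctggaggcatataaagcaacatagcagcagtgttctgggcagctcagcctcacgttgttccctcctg
Selp: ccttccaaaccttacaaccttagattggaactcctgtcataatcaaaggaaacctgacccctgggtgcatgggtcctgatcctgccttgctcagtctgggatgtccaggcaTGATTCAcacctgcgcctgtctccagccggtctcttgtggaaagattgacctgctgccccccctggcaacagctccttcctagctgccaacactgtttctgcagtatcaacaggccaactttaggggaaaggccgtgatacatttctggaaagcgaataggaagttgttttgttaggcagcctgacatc
The NF-kB motif GGGNNTTTC was present in 4.46% of all windows, in 4.39% of windows of genes tested and in 8.56% of those of genes at least 2-fold higher. It was present in 3.19% of those of genes at least 2-fold lower and in 9.26% (5 of 54) of those with PH-CM below and CO-CM above UNX. The raised genes Cxcl2 at chr5:90903649-90903948 and Cxcl3 at chr5:90785851-90786150, both on the plus strand, hold 2 matches and 1.
Cxcl2: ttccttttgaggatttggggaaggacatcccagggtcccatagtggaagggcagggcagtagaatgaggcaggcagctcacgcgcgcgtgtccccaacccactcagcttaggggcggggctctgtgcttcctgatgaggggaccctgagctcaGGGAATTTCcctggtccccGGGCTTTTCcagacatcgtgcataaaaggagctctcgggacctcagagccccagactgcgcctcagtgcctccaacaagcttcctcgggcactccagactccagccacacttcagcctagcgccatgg
Cxcl3: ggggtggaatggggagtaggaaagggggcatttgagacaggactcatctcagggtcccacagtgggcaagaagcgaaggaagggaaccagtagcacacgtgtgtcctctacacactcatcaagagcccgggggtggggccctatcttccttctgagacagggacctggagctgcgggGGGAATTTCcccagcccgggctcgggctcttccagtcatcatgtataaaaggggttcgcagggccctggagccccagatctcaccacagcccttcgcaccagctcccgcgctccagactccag
The ATF4 motif TGATGNAA was present in 4.06% of all windows, in 2.28% of windows of genes tested and in 28% (7 of 25) of those of the amino acid response list. Slc7a11 at chr3:50443564-50443863, raised under PH-CM, and Asns at chr6:7693160-7693459, lowered under PH-CM, both lie on the minus strand and hold 2 matches and 1.
Slc7a11: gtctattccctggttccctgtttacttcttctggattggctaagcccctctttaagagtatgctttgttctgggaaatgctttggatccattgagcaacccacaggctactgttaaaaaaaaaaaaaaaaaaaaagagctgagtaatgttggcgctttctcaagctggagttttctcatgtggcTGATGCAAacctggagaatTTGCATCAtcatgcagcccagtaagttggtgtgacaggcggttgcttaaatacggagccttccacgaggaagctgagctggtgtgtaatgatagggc
Asns: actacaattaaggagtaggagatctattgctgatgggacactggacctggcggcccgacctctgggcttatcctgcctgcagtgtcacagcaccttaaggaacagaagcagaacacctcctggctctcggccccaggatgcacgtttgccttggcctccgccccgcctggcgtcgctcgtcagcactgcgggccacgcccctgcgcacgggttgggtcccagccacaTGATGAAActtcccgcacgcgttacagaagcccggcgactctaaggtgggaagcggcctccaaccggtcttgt
The E2F motif TTTNGCGC was present in 1.38% of all windows, in 2.55% of windows of genes tested and in 28.6% (10 of 35) of those of the DNA replication list. It was present in 3.73% of windows of genes called lower and in 2.13% of those at least 2-fold lower. The letters CCAAT were present in 37.9% of all windows, 39.4% of windows of genes tested and 71.4% (25 of 35) of those of the mitosis list. They were also present in 62.9% (22 of 35) of windows of the DNA replication list. For the cholesterol and fatty acid synthesis list, with 17 of 34 members called higher, the share was 75% (18 of 24). The lowered genes Mcm6 at chr1:128359656-128359955 and Top2a at chr11:99024140-99024439, both on the minus strand, hold 3 E2F matches, of which a pair overlaps, and 6 CCAAT matches.
Mcm6: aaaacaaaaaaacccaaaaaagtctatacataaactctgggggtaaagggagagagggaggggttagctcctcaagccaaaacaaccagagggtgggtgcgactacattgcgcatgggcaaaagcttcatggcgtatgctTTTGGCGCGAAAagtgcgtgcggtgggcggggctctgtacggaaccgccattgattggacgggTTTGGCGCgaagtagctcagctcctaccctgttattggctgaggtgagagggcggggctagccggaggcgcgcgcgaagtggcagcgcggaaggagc
Top2a: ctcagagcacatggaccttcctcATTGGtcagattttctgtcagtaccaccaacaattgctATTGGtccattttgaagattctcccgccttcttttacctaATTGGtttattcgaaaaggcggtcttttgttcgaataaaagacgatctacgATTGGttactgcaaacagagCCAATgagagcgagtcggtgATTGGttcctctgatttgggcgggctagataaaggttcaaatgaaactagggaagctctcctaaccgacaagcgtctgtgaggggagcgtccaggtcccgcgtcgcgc
The HIF core, STAT, C/EBP and SREBP motifs were also counted, without sequences shown. Among genes at least 2-fold higher, C/EBP was present in 14% (36 of 257) of windows, beside 8.15% of those of genes tested. There STAT was present in 8.95% beside 6.71%, SREBP in 1.17% beside 1.08% and the HIF core in 21.8% beside 26.3%. These matches describe letters in the windows, and binding of a factor was not measured.

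Among the genes of NF-kB signaling, 8 of 30 were higher and 4 lower (median 0.17), with 2 lower when PH-CM replicate 1 was left out. The subunit genes Rela (0.18), Nfkb1 (0.17), Rel (0.05) and Relb (0.29) were not called, although Relb was called higher with the replicate block (edgeR adjusted p = 0.0319) and without UNX replicate 1 (0.00899), and Nfkb2 was higher by 0.40. The nuclear co-regulator Bcl3 (0.89) and the inhibitor Nfkbie (0.76) rose, while the feedback genes Tnfaip3 (-0.30) and Tnip1 (-0.37) fell, though Tnfaip3 came to -0.25 and lost its call without PH-CM replicate 1. Of the JAK-STAT genes and cytokine receptors 10 of 34 were higher and 4 lower (median 0.11). Stat4 lay on opposite sides of UNX, with 2.78, 3.4 and 3.36 CPM in UNX, 0.526, 0.748 and 0.97 CPM under CO-CM and 4.25, 4.54 and 4.83 CPM under PH-CM. Il4ra, the receptor chain for IL-4 and IL-13, had 139, 148 and 123 CPM under CO-CM and 274, 347 and 296 CPM under PH-CM, and the feedback inhibitor Socs3 had 7.9, 12.3 and 8.28 CPM under CO-CM and 16.6, 21.4 and 19.4 CPM under PH-CM. Il6st, the shared signaling chain of the IL-6 family, was lower at -0.75 and Osmr, the chain for oncostatin M, was higher at 1.14. Csf3r (-0.99), the receptor for G-CSF, was lower. In the TNF superfamily 8 of 20 were higher and 3 lower (median 0.14), or 5 lower with the replicate block, without UNX replicate 1 and by DESeq2 or the edgeR exact test. Tnfsf14, the ligand LIGHT, was higher, at 0.468, 0.718 and 0.703 CPM under CO-CM and 4.17, 6.44 and 5.79 CPM under PH-CM, and Cd40, a co-stimulatory receptor, was lower, at 3.04, 4.31 and 4.08 CPM under CO-CM and 0.997, 1.3 and 1.39 CPM under PH-CM. Tnf itself (-0.44) was not called in the reported fit (edgeR adjusted p = 0.095), but was called lower with the block (0.0232), by DESeq2 (0.0428), by the exact test (0.000577) and without UNX replicate 1 (0.0056) or UNX replicate 2 (0.047).

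Interferon-stimulated genes were raised relative to CO-CM in 21 of 41 cases and lower in 2, with a median of 0.51. In 13 of the 21 the PH-CM mean nevertheless lay below the UNX mean. Oasl1, an antiviral regulator, had 2.04, 1.96 and 2.58 CPM in UNX, 0.234, 0.389 and 0.45 CPM under CO-CM and 1.15, 1.16 and 1.71 CPM under PH-CM. Rtp4 had 30.2, 26.7 and 33.5 CPM in UNX, 6.52, 7.6 and 10.6 CPM under CO-CM and 22.7, 18.8 and 23.3 CPM under PH-CM. In both genes the CO-CM libraries were lowest and the PH-CM libraries lay between these and UNX. Ifitm1 (2.62), Ifitm6 (2.08), Ifitm2 (1.07) and Ifitm3 (1.10), membrane proteins that block virus entry, were all higher, with Ifitm1 at a mean of 0.332 CPM in UNX and 7.39 CPM under PH-CM. The transcription factor Irf7 (0.87) was higher. Leaving out single libraries moved the count of higher members between 16 and 23, and 1 member was lower without CO-CM replicate 3.

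Antigen presentation and uptake receptors did not share a direction. The co-stimulatory ligands Cd86 and Cd80 rose, Cd86 from 5.82, 4.65 and 4.27 CPM under CO-CM to 22.4, 26.3 and 24.7 CPM under PH-CM and Cd80 from 5.35, 6.11 and 5.31 to 19.7, 20.8 and 19.1 CPM. The class II chains H2-Aa (-0.94) and H2-Eb1 (-0.92) and the invariant chain Cd74 (-0.63) fell. Of the 14 class II antigen presentation genes tested, 3 were higher and 4 lower. The count higher includes H2-DMb2 (0.79), whose call was lost with upper-quartile scaling and without CO-CM replicates 1 or 2, PH-CM replicates 2 or 3 or UNX replicate 3 (0.64 to 0.80). Of 11 dendritic cell markers 3 were tested, with Irf8 (-0.37) and Bst2 (-0.36, not called with exon length offsets) lower and Kmo (2.24) higher, and the other 8 were under 1 CPM under both media. Their summed CPM ran from 287.4 to 314 under CO-CM and from 233.2 to 242.2 under PH-CM, and their part in the class II and Itgax differences was not tested. Complement and Fc receptor genes were higher in 12 of 19 and lower in 4 (median 0.50). Fcgr4, an activating IgG receptor, had 12.1, 17.6 and 17.6 CPM under CO-CM and 43.4, 65.8 and 62.3 CPM under PH-CM, and Cfp, encoding properdin, had 203, 223 and 216 CPM under CO-CM and 589, 694 and 664 CPM under PH-CM against 341, 367 and 348 CPM in UNX. The chains C1qa (0.77), C1qb (0.50) and C1qc (0.45) of complement C1q rose together. Itgax, the integrin chain CD11c, was lower, with 19.2, 63.8 and 59.4 CPM under CO-CM and 5.13, 6.78 and 7.64 CPM under PH-CM. Of the scavenger and lectin receptors, 3 of 19 were higher and 5 lower. Mrc1, the mannose receptor, had 903, 1045 and 817 CPM in UNX, 185, 168 and 180.1 CPM under CO-CM and 592, 599 and 547 CPM under PH-CM. The hemoglobin receptor Cd163 (1.58) and Stab1 (1.08) were higher and Trem2 (-0.85), Folr2 (-1.0) and Gpnmb (-0.56) were lower.

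Matrix and matricellular genes were higher in 23 of 46 cases and lower in 6 (median 0.42). After Thbs1 and Vcan came Tgm2, the protease inhibitor Timp1 (14.1, 11.3 and 14.3 CPM under CO-CM and 38.4, 36.2 and 40.8 CPM under PH-CM), the basement membrane protein Nid2 (1.4), the protease Mmp19 (1.34) and the secreted adhesion protein Tgfbi (1.31). The chains of fibrillar collagen Col1a1 (0.02) and Col1a2 (-0.06) and fibronectin Fn1 (0.01) were not called. The protease gene Mmp12 and the osteopontin gene Spp1 (-0.92) were lower. The galectin Lgals3 (-0.44) was lower too, with the call lost without CO-CM replicates 2 or 3 or PH-CM replicates 1 or 2 (-0.43 to -0.36). Fibroblast markers, 11 of 16 of them tested, gave 3 higher and 1 lower. The count higher was 6 with the replicate number as a block and 1 without CO-CM replicate 2 or without PH-CM replicate 3, and the markers' summed CPM ran from 341.1 to 410.8 under CO-CM and from 353.3 to 460 under PH-CM. Their part in the matrix counts was not tested, while Dcn, not called in the reported fit and called higher with the block (edgeR adjusted p = 0.0274), stood at means of 1.66 and 2.41 CPM and Pdgfra at 2.25 and 2.54 CPM. Integrins and adhesion genes were higher in 9 of 26 and lower in 7. Itga9 (2.23), Cd44 (0.51) and Itgam (0.94) were higher, and Itgb3 (-1.68), Cd9 (-1.19) and Itga6 (-0.73) were lower.

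Coagulation and fibrinolysis genes were called higher in 6 of 20 and lower in 4 (median 0.23). F5 encodes coagulation factor V, the cofactor of factor Xa, and had 1.6, 2.44 and 1.58 CPM in UNX, 2.17, 2.12 and 1.85 CPM under CO-CM and 91, 116 and 104 CPM under PH-CM. Serpinb2, an inhibitor of plasminogen activators whose exons overlap Serpinb10, had 1.78, 0.898 and 1.52 CPM under CO-CM and 5.15, 6.02 and 5.41 CPM under PH-CM. The RNA of this inhibitor was thus higher and that of Plau, its target protease, lower. F13a1 (1.81), a subunit of the fibrin crosslinking factor XIII, was higher, with the call lost without CO-CM replicate 3 (1.68) or PH-CM replicate 2 (1.29). The platelet chemokine gene Pf4 had 149, 174 and 163 CPM in UNX, 107, 127 and 135 CPM under CO-CM and 218, 269 and 256 CPM under PH-CM, and Selp, the adhesion receptor P-selectin, had 0.0585, 0.18 and 0.0281 CPM under CO-CM and 2.8, 3.93 and 2.6 CPM under PH-CM, though its exons overlap Gm16548 and Gm16587. Of 10 megakaryocyte and platelet markers 4 were tested, 2 higher (Pf4 and Ppbp) and 1 lower (Treml1, whose call was lost without CO-CM replicate 2, CO-CM replicate 3 or PH-CM replicate 1), with summed CPM of 114.2 to 144 under CO-CM and 226.2 to 279.8 under PH-CM, while Itga2b and Gp9 did not pass the filter. Most of these sums was Pf4, with means of 123 CPM under CO-CM and 248 CPM under PH-CM, while Ppbp had 0.0584 and 3.83 CPM, Treml1 6.54 and 4.33 CPM and Gp1ba 1.23 and 1.16 CPM. Their part in these results was not tested.

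Growth and angiogenic factors were higher in 13 of 30 and lower in 6 (median 0.24). Vegfa, the main angiogenic growth factor, had 48.5, 99.1 and 73.5 CPM in UNX, 65.9, 162 and 105 CPM under CO-CM and 325, 474 and 413 CPM under PH-CM. Inhba, encoding activin A, had 8.48, 5.21 and 6.35 CPM under CO-CM and 17.6, 21.2 and 19.9 CPM under PH-CM, and Osm, encoding oncostatin M, had 9.55, 13.3 and 12.7 CPM under CO-CM and 25.9, 39.8 and 43.3 CPM under PH-CM. Every PH-CM library was above every CO-CM library in these 3 genes. Tgfb3 (1.83) rose while Tgfb1 (0.00) was not called. Igf1, insulin-like growth factor 1, had 412, 324 and 390.4 CPM in UNX, 479, 430.1 and 491 CPM under CO-CM and 152, 133 and 161 CPM under PH-CM, and Pdgfb (-1.46) was lower. Receptors of VEGF moved apart, with Kdr at 20.4, 16.2 and 17.1 CPM under CO-CM and 55.5, 54.2 and 63.2 CPM under PH-CM and Flt1 at 5.89, 7.32 and 6.14 CPM under CO-CM and 1.28, 1.13 and 0.981 CPM under PH-CM. Kdr and Pecam1 (4.34, on 22 reads under CO-CM and 419 under PH-CM) are also endothelial markers, of which 5 of 10 were tested, 3 higher and 2 lower, and whose summed CPM was lower under PH-CM (344.7 to 370) than under CO-CM (462.7 to 536.6). Most of this sum was Vwf, with means of 418 CPM under CO-CM and 260 CPM under PH-CM, while Kdr, Pecam1 and Cdh5 were called higher. Cdh5 was under 1 CPM on average in both media, at 0.183 and 0.852 CPM.

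A list of regulators from the AP-1, MAF, EGR, KLF, C/EBP and NR4A families, with Ier3, was higher in 13 of 29 and lower in 5 (median 0.27). After Fosl2 came Nr4a2 (3.04, 2.77 and 2.09 CPM under CO-CM and 17.2, 15.6 and 19.2 CPM under PH-CM), Fosb (2.68), Ier3 (2.43), Fos (1.74), Cebpb (1.6, exons overlapping Tmem189) and Cebpd (1.26). Jun (0.10) and Jund (0.15), the partners of Fos proteins in AP-1, were not called, and Junb was higher at 0.66. Egr2, a zinc finger factor, had 6.48, 13.2 and 13.1 CPM in UNX, 10.6, 20.6 and 24.1 CPM under CO-CM and 1.73, 2.38 and 3.07 CPM under PH-CM. Egr3 (-2.15), Batf3 (-1.64) and Atf3 (-1.40) were lower as well. Of the feedback genes of ERK signaling and p53, 4 of 27 were higher and 9 lower (median 0.08). The phosphatases Dusp5 (3.32), Dusp1 (1.2) and Dusp6 (0.63) were higher, and Dusp4 (-0.79), Dusp2 (-1.71) and the factor Etv5 (-1.15) were lower. Exons of Dusp1 overlap those of Ergic1.

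The count of glycolysis genes and HIF1 targets called depended on the fit. Of 34 tested, 6 were higher and 4 lower (median 0.32), and 10 were higher without CO-CM replicate 2 or without UNX replicate 2. Without the filter on low counts and without a block 17 were higher, and by the edgeR exact test 10. With the replicate number as a block, 22 were higher and 4 lower, beside 14% and 16.4% of all genes tested. In 25 of the 34 the PH-CM library was above the CO-CM library within all 3 numbers, which held for 35.7% of all genes tested. Ldha, lactate dehydrogenase A, had 703, 1499 and 1313 CPM in CO-CM replicates 1 to 3 and 1296, 1996 and 1840 CPM in the PH-CM replicates. The ranges overlap across numbers, yet within numbers the log2 ratios were 0.88, 0.41 and 0.49, and the adjusted p in edgeR was 0.144 in the reported fit, 0.00306 without the filter and 9.24e-05 with the block. Slc16a3, the lactate exporter MCT4, had 67.2, 205 and 159 CPM under CO-CM and 229, 410.1 and 317 CPM under PH-CM, with log2 ratios of 1.77, 1.00 and 1.00 and an adjusted p in edgeR of 0.0505 in the reported fit, 2.19e-05 without the filter and 1.08e-05 with the block. Hif1a itself, the oxygen-regulated factor, had 102, 92.3 and 97.8 CPM in UNX, 93.9, 76.5 and 72.2 CPM under CO-CM and 199, 182 and 177 CPM under PH-CM. Pkm (0.54), pyruvate kinase, and Pfkfb3 (0.71), an activator of phosphofructokinase, were higher in both fits, and Ndrg1 (-1.03), Epas1 (-0.80), which encodes HIF2-alpha, and the glucose transporter Slc2a3 (-0.38) were lower.

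**Figure D4:**
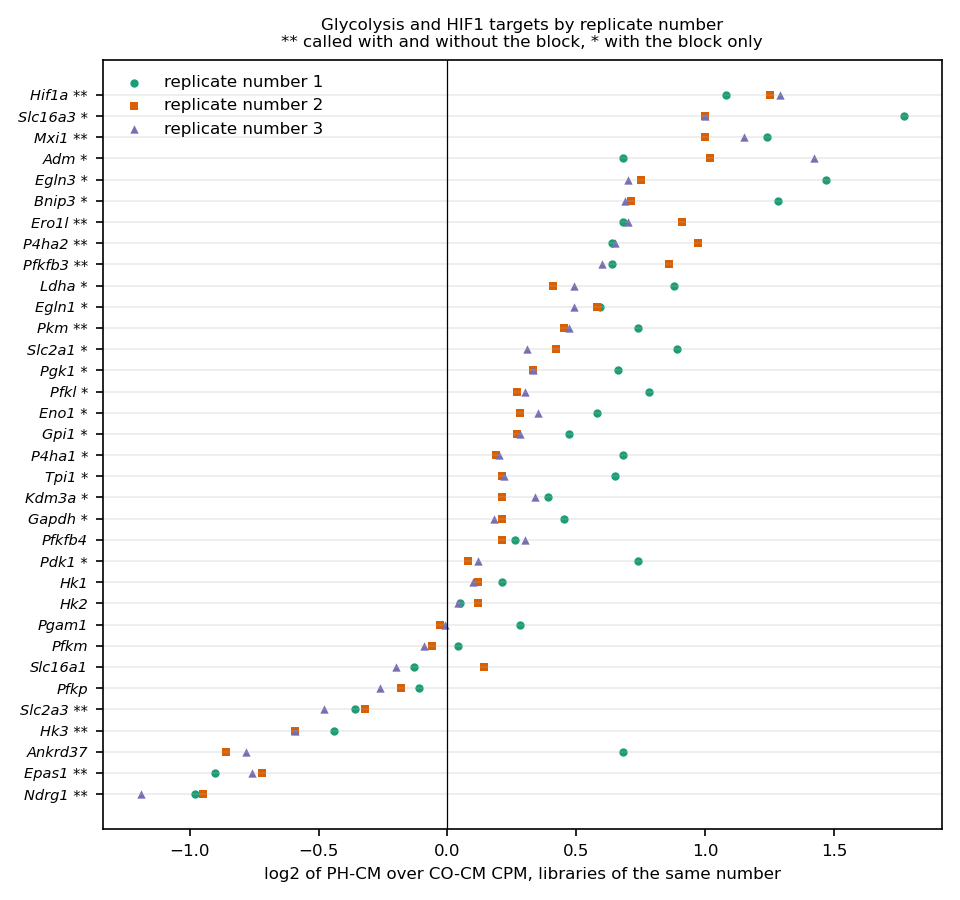
Log2 ratio of PH-CM to CO-CM within each replicate number (horizontal axis, 1 point per number) for the glycolysis genes and HIF1 targets tested. All 3 points lie above 0 in 25 of 34 genes, beside 35.7% of all genes tested.

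Differences in mitochondrial genes were small. Among the nuclear genes of oxidative phosphorylation 14 of 72 were lower and 0 higher (median -0.17), with 0 higher by the edgeR exact test or DESeq2. At an unadjusted p under 0.05, 46 were lower and 0 higher, beside 5592 of all 11950 genes in either direction. The largest decreases in the list were those of Ndufa5 and Ndufa12, subunits of complex I, at -0.41 and -0.41. With offsets corrected for exon length the count called lower was 6, as it was without CO-CM replicate 3. Over the 12 mitochondrially encoded genes, which include mt-Co1 (0.03) and mt-Nd5 (0.01), 0 were called by edgeR's quasi-likelihood test, its exact test or DESeq2, 1 had an unadjusted p under 0.05, and 1 was called lower without PH-CM replicate 1. In the TCA cycle 1 of 33 was higher, Got1 at 1.22, which encodes an aspartate aminotransferase, with 2 higher without CO-CM replicate 1, CO-CM replicate 2 or PH-CM replicate 1 and 3 higher without PH-CM replicate 3. In the same list 7 were lower, led by Mdh1 (-0.62) and Pcx (-0.59). In the pentose phosphate pathway 2 of 11 were higher and 3 lower.

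Amino acid metabolism split within each list. The arginine transporters Slc7a1 (-0.82) and Slc7a2 (-0.73) fell. Of the arginine and polyamine list 6 of 20 were higher and 7 lower. Slc7a11, the cystine-glutamate exchanger, had 2.6, 2.37 and 2.42 CPM under CO-CM and 44.7, 36.5 and 45.2 CPM under PH-CM, a log2 difference of 4.10 ± 0.14. It stood apart from most of the amino acid response list, in which 7 of 29 were higher and 13 lower (median -0.28). Asns, asparagine synthetase, had 105, 61.8 and 81.2 CPM in UNX, 37.9, 21.2 and 33.3 CPM under CO-CM and 17.8, 11.8 and 13.5 CPM under PH-CM, and Phgdh (-1.81) and Psat1 (-0.73) of serine synthesis, Mthfd2 (-0.94) of mitochondrial folate metabolism and Chac1 (-1.91) fell with it. Atf4, the factor that gives this response its name, was lower at -0.35, with the call lost without CO-CM replicates 1 or 3 or PH-CM replicates 1 or 2 (-0.34 to -0.26). Antioxidant genes of the NRF2 list were higher in 12 of 31 and lower in 5 (median 0.25), with Hmox1 (0.55), the heme-degrading enzyme, higher and Cybb (-1.55), the catalytic chain of the phagocyte NADPH oxidase, lower.

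Cholesterol and fatty acid synthesis genes were higher in 17 of 34 and lower in 0 (median 0.39), with 0 lower by the edgeR exact test or DESeq2. At an unadjusted p under 0.05, 25 were higher and 0 lower, beside 5592 of all 11950 genes in either direction. With the replicate block 21 were higher and 1 lower, beside 14% and 16.4% of all genes tested. In all 17 genes called in the reported fit the PH-CM mean stayed below the UNX mean. Mvd, a decarboxylase of the mevalonate pathway, had 46, 72.9 and 73.7 CPM in UNX, 32.4, 30.9 and 31.4 CPM under CO-CM and 60.5, 60.9 and 61.5 CPM under PH-CM, and Elovl6, a fatty acid elongase, had 23.7, 30.7 and 30.8 CPM in UNX, 6.08, 5.72 and 5.99 CPM under CO-CM and 11.5, 9.98 and 10.8 CPM under PH-CM. In both genes CO-CM was lowest. Of the lipid handling genes 2 of 27 were higher and 9 lower (median -0.21). Pparg, a nuclear receptor of lipid storage, had 28.4, 33.4 and 34.2 CPM in UNX, 35.4, 40.0 and 42.8 CPM under CO-CM and 12.8, 13.1 and 13.6 CPM under PH-CM, and Fabp4 (-1.26), Plin2 (-0.56) and Abcg1 (-1.50) were lower along with Lpl. The cholesterol exporter Abca1 was an exception at 191, 232 and 155 CPM under CO-CM and 720.4, 846 and 757 CPM under PH-CM. Of the eicosanoid genes 4 of 14 were higher and 3 lower (median -0.14), with 3 to 5 lower when single libraries were left out. Ptgs2, the inducible cyclooxygenase, had 1.87, 1.5 and 0.843 CPM under CO-CM and 11.6, 12.2 and 10.8 CPM under PH-CM. Pla2g7 (2.84), which inactivates platelet-activating factor, was higher and Hpgd (-2.26), which degrades prostaglandins, was lower.

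Proliferation genes were mostly lower under PH-CM. DNA replication genes were lower in 34 of 43 and higher in 0 (median -0.47), with 0 higher by the edgeR exact test or DESeq2. Of the 43, 38 were lower and 0 higher at an unadjusted p under 0.05, beside 5592 of all 11950 genes in either direction. Mitosis and spindle genes were lower in 35 of 39 (median -0.70), and 1 was higher. Both media had means below UNX in 43 of 43 DNA replication genes and in 37 of 39 mitosis genes. Mcm6, a subunit of the replicative helicase, had 352, 322 and 343 CPM in UNX, 86, 85.1 and 97.5 CPM under CO-CM and 56.7, 48 and 48.8 CPM under PH-CM. Top2a, the topoisomerase that untangles chromosomes, had 551, 498 and 490.0 CPM in UNX, 60.1, 69.6 and 84.5 CPM under CO-CM and 44.5, 40.2 and 40.1 CPM under PH-CM. In both genes PH-CM was lowest and the groups did not overlap. Uhrf1 (-1.25), Pcna (-1.22), Ccna2 (-1.0) and Kif11 (-0.99) gave further examples. The member that was higher was Cenpa, a histone variant of centromeres, with 69.3, 77.5 and 72.7 CPM in UNX, 34.6, 56.8 and 53.1 CPM under CO-CM and 82.6, 108 and 110.5 CPM under PH-CM. Of the G1 cyclins and CDK inhibitors 3 of 24 were higher and 11 lower, with Ccnd1 (-1.62) and Myc (-0.55) lower and Cdkn1a (0.59), which encodes the inhibitor p21, higher. In all 3 genes called higher the PH-CM mean lay below UNX, with Cdkn1a at means of 294 CPM in UNX, 123 CPM under CO-CM and 185 CPM under PH-CM.

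Ribosomal protein genes were lower in 61 of 75 and higher in 0 (median -0.35), with 0 higher by the edgeR exact test or DESeq2. Of the 75, 71 were lower and 0 higher at an unadjusted p under 0.05, beside 5592 of all 11950 genes in either direction. The decreases were small, down to -0.71 for Rpl12, at 329, 372 and 413 CPM under CO-CM and 211, 229 and 239 CPM under PH-CM. Processed pseudogenes of these genes are many, and how the counting split such reads is uncertain. With offsets corrected for exon length 47 were lower, and the median difference of all genes ran from -0.07 in the quartile of shortest exons (median 1838 bases) to 0.04 in that of the longest (9103 bases). Genes of ribosome biogenesis had 2 of 33 higher and 2 lower (median -0.06), with 1 higher without any of CO-CM replicates 2 and 3 and PH-CM replicates 1 and 3. Lysosomal genes were lower in 12 of 36 and higher in 1 (median -0.17). The exception was Ctsl, the protease cathepsin L, with 2101, 2437 and 2616 CPM under CO-CM and 4742, 5397 and 5595 CPM under PH-CM, while Lipa, lysosomal acid lipase, had 1726, 1793 and 1891 CPM under CO-CM and 884, 794 and 892 CPM under PH-CM, Ctsd (-0.51) was lower and the factors Tfeb (-0.76) and Mitf (-0.79) were lower.

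In 155 genes the media lay on opposite sides of UNX, with each of the 3 comparisons called. PH-CM was above and CO-CM below UNX in 91 (0.762% of the genes tested), and the reverse held in 64 (0.536%). In 136 of them the 3 groups of libraries did not overlap at all. The median differences of the 91 genes were 0.68 for PH-CM minus UNX and -0.60 for CO-CM minus UNX, and those of the 64 genes -0.66 and 0.61. At 2-fold or more on both sides, 16 genes remained, 11 with PH-CM above and 5 with PH-CM below.

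**Figure D5:**
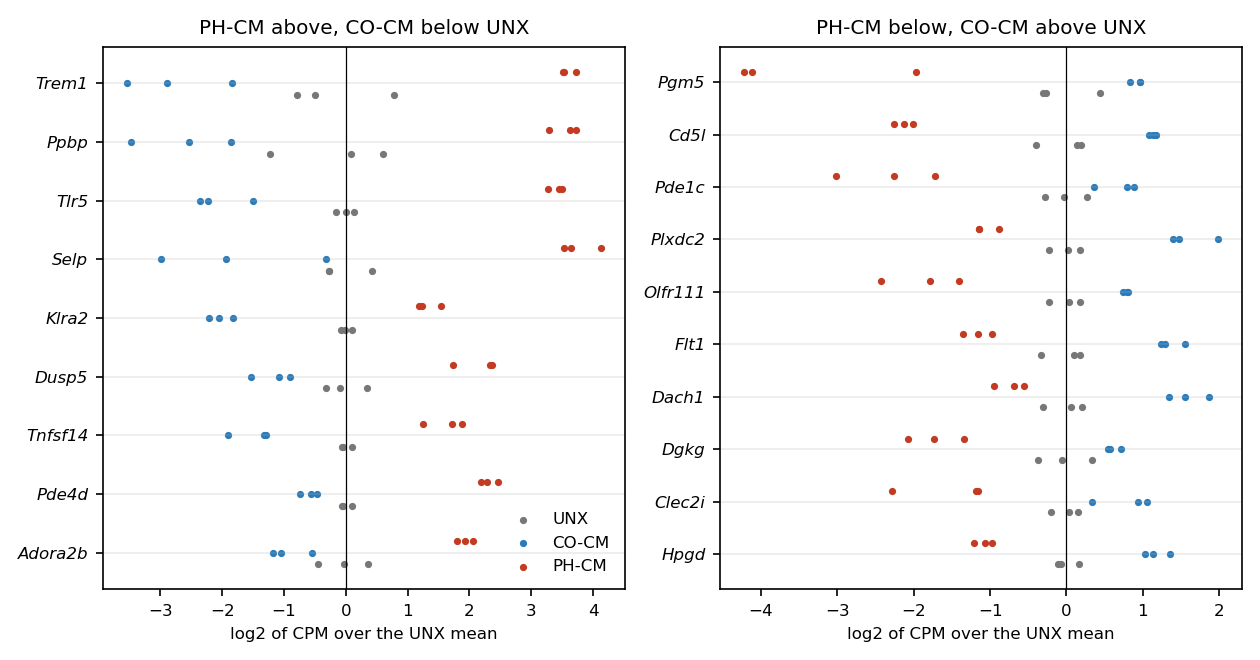
Log2 of each library's CPM over the UNX mean (horizontal axis), 1 point per library coloured by group, for genes among those with the largest difference between the media on opposite sides of UNX. On the left the 3 PH-CM libraries lie above 0 and the 3 CO-CM libraries below it in every gene shown, and on the right the sides are exchanged.

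The genes raised by PH-CM and lowered by CO-CM included receptors, adhesion molecules and signaling enzymes. Trem1 had 1.79, 0.61 and 0.745 CPM in UNX, 0.292, 0.0898 and 0.141 CPM under CO-CM and 13.8, 12 and 12 CPM under PH-CM. Tlr5, the flagellin receptor, had 2.28, 2.8 and 2.54 CPM in UNX, 0.497, 0.539 and 0.9 CPM under CO-CM and 24.5, 28.6 and 27.9 CPM under PH-CM. Of 10 markers of classical monocytes 7 were tested, with 3 higher, Vcan and F13a1 among them, and 0 lower, while Ccr2 and Plac8 (0.22) were not called and Ly6c2 did not pass the filter. Their summed CPM ran from 181.7 to 219.5 under CO-CM and from 307.2 to 422.7 under PH-CM, of which Vcan made up means of 4.70 and 137 CPM, and their part in these results was not tested. Dusp5, a nuclear phosphatase of ERK, had 7.28, 11.5 and 8.51 CPM in UNX, 3.13, 4.88 and 4.3 CPM under CO-CM and 30.3, 46.9 and 46 CPM under PH-CM. Pde4d, a cyclic AMP phosphodiesterase, had 2.16, 2.44 and 2.2 CPM in UNX, 1.64, 1.53 and 1.35 CPM under CO-CM and 12.4, 10.3 and 11 CPM under PH-CM, and Adora2b, an adenosine receptor that raises cyclic AMP, had 2.99, 1.72 and 2.31 CPM in UNX, 1.61, 1.14 and 1.04 CPM under CO-CM and 8.89, 8.15 and 9.72 CPM under PH-CM. In these genes the 3 groups stood in the order CO-CM, UNX and PH-CM. Klra2 (3.35), a receptor of the Ly49 family with near-identical copies, is reported as uncertain.

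In the reverse direction, Flt1, the VEGF receptor 1, had 1.99, 2.69 and 2.84 CPM in UNX, 5.89, 7.32 and 6.14 CPM under CO-CM and 1.28, 1.13 and 0.981 CPM under PH-CM. Hpgd had 6.76, 5.75 and 5.59 CPM in UNX, 12.3, 15.5 and 13.2 CPM under CO-CM and 3.06, 2.61 and 2.88 CPM under PH-CM, and Pde1c, a calcium-dependent phosphodiesterase, had 1.05, 1.25 and 1.54 CPM in UNX, 1.64, 2.37 and 2.22 CPM under CO-CM and 0.268, 0.386 and 0.158 CPM under PH-CM. Here UNX lay between a raised CO-CM and a lowered PH-CM level. Plxdc2 (-2.69), Dach1 (-2.32), a nuclear co-repressor, and Dgkg (-2.29), a diacylglycerol kinase, followed the same course by the log2 difference between the media, as did Igf1 and Pparg among the listed genes. The phosphodiesterases Pde4d and Pde1c lay on opposite sides in opposite directions. Olfr111 (-2.59) belongs to the large olfactory receptor family and is reported as uncertain.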

How the data were processed

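The 9 libraries of mouse BMDMs, 3 per group, were assigned to groups by their labels. Reads had been checked, trimmed, mapped by STAR on GRCm38 and assigned to exons by featureCounts 1.6.2, and the authors deposited the resulting raw counts. The options stated for featureCounts set neither strand nor read pairs. Between 81.4% and 83.8% of counts from 1 to 19 were even, so mates appear to have been counted singly. RPKM values were made by the authors from these counts and gene length. Their comparison tables hold fold changes, mean log CPM, p-values and FDR and were not used. Analysis was done in R 4.3.3 (edgeR 4.0.16, DESeq2 1.42.0) on genes above 1 CPM in at least 3 libraries, with TMM scaling, also for the CPM printed, and 1 quasi-likelihood fit of all 9 libraries with a mean per group. Adjusted p-values are over all 11950 genes, and calls required 0.05 or less and a 1.2-fold change. Read numbers bear on counting error only.

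The members and gene lists were chosen with earlier results of these data known. Named were the 12 largest increases and decreases among called genes with separated libraries and a mean of at least 1 CPM, the 6 largest among genes of at least 100 CPM, the 10 largest on opposite sides of UNX in each direction and, per list, up to 4 members per direction and 2 not called. Other list members are named after their values were seen, and some genes that the rule names are not reported here. Replicate numbers are shared by the groups. Same-numbered libraries deviated together from the group means in every pair (r from 0.276 to 0.484), although neither labels nor paper tie a number to a repeat. The reported fit has no block, and a fit with the number as a block is given where it changed the call of a named gene or moved a count by over 1.5 times. On simulated counts for PH-CM against CO-CM, 178 of 198 genes changed 2-fold were recovered among 11557 tested, with 4 false calls. The simulated libraries were drawn independently, with the same dispersion for all genes and no deviation shared by number. These counts therefore check that the code runs as intended and are not error rates of the reported fit. Alternatives were other tests, scalings, filters, fold thresholds, the replicate block, halved counts, a fit of only the compared groups and each library left out. Symbols came from the reference names for 53274 of the 53465 identifiers and positions from GENCODE on GRCm38.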

Additional observations from a re-analysis of the deposited data

How the results depend on the processing

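Calls between the media numbered 3244 in the reported fit and between 2768 (without CO-CM replicate 3) and 3386 (without CO-CM replicate 1) when single libraries were left out. They numbered 3377 with DESeq2, 3454 with the exact test and 3632 with the replicate block, which shared 3242 of the 3244. Upper-quartile scaling moved the share of higher genes among calls from 44.9% to 38.1%, without a shift of the median over 0.1. A fold threshold of 2 left 612 calls (336 higher and 276 lower) and 16 genes on opposite sides of UNX (11 with PH-CM above and 5 below). No fold threshold gave 280 on opposite sides (166 and 114), and separated libraries without a call gave 330. The block raised the glycolysis and HIF1 targets called higher from 6 to 22 and the fibroblast markers from 3 to 6. Without the filter on low counts and without a block, 17 glycolysis and HIF1 targets were called higher. Offsets for exon length, chosen after seeing the data, lowered the count of oxidative phosphorylation genes called lower from 14 to 6, and leaving out single libraries moved it between 6 and 18. The causes were not tested. Over the genes that the rule names, 6879 values kept direction and side of the threshold, 83 gained and 73 lost the call, and none reversed. Over all 1013 list members and 21 other fits, 20412 of 21273 calls were kept, 508 gained and 353 lost, and 0 turned direction.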
